A study of Rattus norvegicus with 54 samples.

Results

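Period, cryptochrome, and Ciart transcripts were followed in the rat heart over the day: Per1, Per2, Per3, Cry1, Cry2, and Ciart, 6 genes that share a role as repressors in the circadian clock. The 6 are defined by that role, and all 6 were present among the 10257 genes measured in 54 rats. C rats were controls that were left undisturbed, with food and water ad libitum. W rats did shift work, kept awake in a slowly rotating drum from ZT2 to ZT10 on weekdays for 5 weeks, and could eat at any time, work included. WRF rats did the same work but had food only outside working hours. ZT is the hour after lights on. All were male wildtype Wistar rats, 7 to 8 weeks old at the start, housed singly under a 12:12 light-dark cycle, with water ad libitum. Each group held 18 rats, 3 at each of ZT1, 5, 9, 13, 17, and 21, and all were killed on a weekend day without work, when every group had free access to food. Levels are fpkm, which scale reads by transcript length and by the mapped reads of a library, so they can be compared between genes of different length.

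The mammalian clock is a feedback loop of transcription. The activators BMAL1 (encoded by Arntl) and CLOCK, or its relative NPAS2, bind E-boxes in DNA and drive the Period (Per) and Cryptochrome (Cry) genes, whose proteins gather in a complex that enters the nucleus and represses the activators. PER2 and CRY1 proteins are central to that repression, Per1 also responds to glucocorticoids and other systemic signals, and PER3 has a smaller part. CRY2 is the close relative of CRY1, and CIART, also called CHRONO, is a further repressor of BMAL1 and CLOCK. The heart has its own clock, which food intake and signals from the rest of the body can set.

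Promoter windows are shown for Ciart and Per2 because Ciart had the deepest daily swing of the 6 and Per2 had the smallest p for a difference of rhythm between W and C rats. Each line below gives the 250 bases before a RefSeq transcript start in the GRCr8 assembly, 5′ to 3′ on the strand of the gene. Capitals mark E-boxes (CACGTG) in the Ciart sequence, and an E-prime box (CACGTT) and a D-box (TTATGTAA) in the Per2 sequence.

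Ciart, chr2:186112247-186112496, minus strand: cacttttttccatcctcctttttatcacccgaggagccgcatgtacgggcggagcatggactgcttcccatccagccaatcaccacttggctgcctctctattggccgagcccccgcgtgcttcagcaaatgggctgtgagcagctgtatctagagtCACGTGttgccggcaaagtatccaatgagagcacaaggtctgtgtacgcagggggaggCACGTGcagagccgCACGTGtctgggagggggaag

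Per2, chr9:99496994-99497243, minus strand: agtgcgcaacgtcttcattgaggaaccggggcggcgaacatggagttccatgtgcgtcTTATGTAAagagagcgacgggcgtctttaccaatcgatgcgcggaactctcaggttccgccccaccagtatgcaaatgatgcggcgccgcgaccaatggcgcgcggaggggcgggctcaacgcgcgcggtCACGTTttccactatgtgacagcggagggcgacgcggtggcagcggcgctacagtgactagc

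The Ciart window held 3 canonical E-boxes, which began 93, 35, and 21 bases before the transcript start. The Per2 window held 1 E-prime box 62 bases and 1 D-box 192 bases before the start, the D-box being the site of DBP and TEF, clock-driven activators. Both starts lie inside the annotated gene, which has other transcripts that begin further upstream. Of the 6 genes, 5 had such a window (300 bases, 250 before and 50 after the start). Besides those named, the Cry2 window held an E-prime box 212 bases before the start, and the Per1 and Per3 windows held none of the motifs searched on both strands. Those were CACGTG, found in 6.42% of all 33469 RefSeq windows, CACGTT in 4.83%, the D-box (TTATGTAA or TTACGTAA) in 1.01%, the cAMP response element TGACGTCA in 1.83%, the REV-ERB and ROR element in 0.356%, and the glucocorticoid response element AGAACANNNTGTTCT in 0.0149%. In all, 19 windows (0.0568%) held 3 or more canonical E-boxes. The Per1 and Per3 starts also lie inside the annotated gene. On the plus strand of chromosome 10 the Per1 window begins at 54304126 and the gene at 54299002. Lack of a motif in a window thus says nothing of sequence outside it, such as that before other starts. A match of letters is a description of the window and not a measured binding site.

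The hearts carried the RNA of heart muscle: the summed fpkm of 5 cardiomyocyte markers was 7843 to 16686 in C and 9140 to 14720 in W rats. The sum of 4 atrial cardiomyocyte markers spread more widely, from 48.3 to 55788 in C, 45.2 to 62455 in W, and 60.9 to 54998 in WRF rats. Its medians were 138, 317, and 1154, so libraries and groups differed in atrial RNA, which the rhythm fits did not take into account. By lung, T cell, or liver markers, libraries of 3 rats stood apart. In WRF51 (ZT9) the cardiomyocyte sum was 247 and the lung gene Ager was at 1419 fpkm, against at most 4.79 in C rats. In WRF62 (ZT5) the cardiomyocyte sum was 1529 and 5 T cell markers summed to 597, against at most 22.3 in C rats. In W21 (ZT17), 5 liver markers summed to 1441, against at most 185 in C rats. Adipocyte markers varied as well: 2 of them summed to 174 in WRF55 (ZT1) and 390 in WRF62, against at most 63.5 in C and 28.3 in W rats. A further WRF rat had 180 fpkm of the adipocyte gene Adipoq, against at most 27.2 in C rats. The table holds no read counts, so no counting error can be given for a value, and in whole hearts crushed with their atria fewer cells of a type and less RNA per cell cannot be told apart. For 12 WRF rats, WRF41 to WRF62 and WRF50 to WRF55, the collection time in the title differs from that in the other labels by 4 h; the titles were used. From the order of the rat numbers the 18 rats of a group make up 3 series with 1 rat per time: C17 to C22, C25 to C30, and C33 to C38; W17 to W22, W33 to W38, and the odd numbers W1 to W11; WRF41 to WRF62, WRF1 to WRF6, and WRF50 to WRF55.

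Ciart had the steepest daily change in C rats. At ZT1 the 3 C rats had 0.0912, 0.0949, and 0.166 fpkm of Ciart, and at ZT9 they had 8.56, 11.1, and 11.2 fpkm, a ratio of means of 87.6. By ZT13 the values were 3.97, 4.54, and 4.98 fpkm, and at ZT21 they were back at 0.155, 0.386, and 0.457 fpkm. The rats of neighbouring times thus did not overlap from ZT1 to ZT21, and the high values lay at ZT9 and ZT13. A cosine of 24 h fitted to the 18 rats had a relative amplitude (amplitude over mean level) of 1.49 ± 0.281 (SE) and a peak at ZT10.3 ± 0.719 h (SE; harmonic regression, F test, p = 0.000359, q = 0.0435 over all genes).

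The Period genes peaked later, around the onset of darkness. Per1 had 1.62, 1.84, and 2.44 fpkm at ZT1 and 10.2, 10.6, and 12.2 fpkm at ZT13 in C rats, and the groups of rats did not overlap. Its relative amplitude was 0.719 ± 0.0972 (SE), with a peak at ZT13.8 ± 0.516 h (q = 0.0053, n = 18). Per2 was lowest at ZT5, with 0.649, 1.10, and 1.42 fpkm, and highest at ZT17, with 6.20, 10.9, and 12.0 fpkm, a ratio of means of 9.21. It peaked at ZT15.6 ± 0.522 h with a relative amplitude of 0.816 ± 0.111 (q = 0.00573), the last of the 3 Period genes to do so. Per3 spread more between rats: at ZT17 the C rats had 1.58, 5.88, and 8.13 fpkm, and at ZT9 2.05, 4.43, and 9.38 fpkm. The highest of these belonged to C25 to C30 and the lowest to C33 to C38 at both times. The relative amplitude of Per3 was 0.865 ± 0.22 (p = 0.00489), and it did not pass the correction (q = 0.269).

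The cryptochromes differed from each other. Cry1, the latest of the 6 genes, had 5.13, 5.89, and 6.49 fpkm at ZT21 and 1.92, 2.23, and 2.53 fpkm at ZT9 in C rats. It peaked at ZT20.1 ± 0.511 h with a relative amplitude of 0.441 ± 0.0589 (q = 0.00499). Its lowest time was thus the highest time of Ciart. Cry2 was the most abundant, at a mean of 9.80 fpkm in C rats, and the flattest, with a relative amplitude of 0.194 ± 0.0605. It had 6.11, 6.65, and 6.75 fpkm at ZT5 and 10.3, 13.1, and 13.6 fpkm at ZT9, and its rhythm had p = 0.0197 and q = 0.578. Thus 4 of the 6 repressors (Per1, Per2, Cry1, and Ciart) were rhythmic in C rats at q under 0.05, where 0.848% of all genes were, and all 6 had an unadjusted p under 0.05, where 5.91% of all genes did. Leaving out any 1 of the 3 C series left 0 of the 6 past q under 0.05 (12 rats). In each of these 3 fits 5 repressors kept an unadjusted p under 0.05. A rank test against cosines, of the JTK type, called 0 of the 6 in C rats and gave 5 an unadjusted p under 0.05. For these fits and the JTK-type test the share of all genes at the unadjusted threshold is not given.

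**Figure D1:**
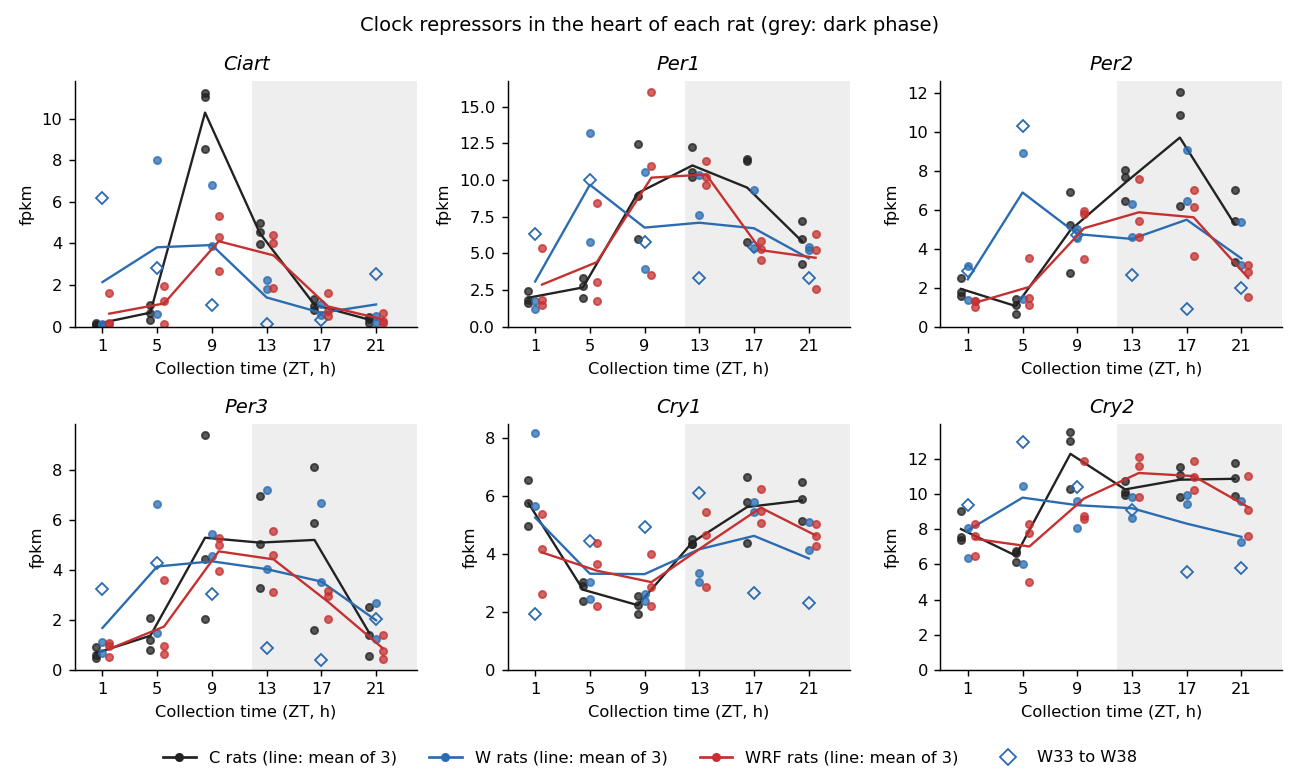
Level of each repressor (fpkm, linear axis) in every rat against collection time (ZT, h), with a line through the mean of the 3 rats per group and time, C in black, W in blue, and WRF in red. Open diamonds are W33 to W38, and the Ciart panel shows their 6.20 fpkm at ZT1, where the other W rats had 0.0938 and 0.126 fpkm.

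In W rats the levels of the 6 repressors varied between rats of the same hour. At ZT5, within the weekday hours of work, Per2 had 1.44, 8.92, and 10.3 fpkm in W rats against 0.649 to 1.42 fpkm in C rats, and the lowest W rat, W3, lay just above the highest C rat. Per1 at that time had 5.78, 10.04, and 13.2 fpkm in W against 1.98, 2.74, and 3.30 fpkm in C rats, without overlap. Ciart at ZT5 had 0.609, 2.83, and 8.00 fpkm in W against 0.326, 0.656, and 1.03 fpkm in C rats, and W3 lay within the C range. The high values at ZT5 came from W18 and W34. At the C peak of Ciart, ZT9, the W rats had 1.05, 3.88, and 6.83 fpkm, all below the lowest C rat.

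No repressor passed the rhythm test in W rats. With harmonic regression, 0 of 6 passed q under 0.05 and 0 had an unadjusted p under 0.05 (lowest p 0.101, for Ciart, n = 18), against 0% of all genes at q under 0.05 and 3.05% at p under 0.05. The JTK-type test gave 0 of the 6 at either threshold, and 0 of all genes at q under 0.05. Fitted to all 18 W rats, the cosine of Per2 had 27.1% of its relative amplitude in C rats, that of Cry1 32.4%, Per1 41.5%, Per3 48.5%, Ciart 54.4%, and Cry2 62.6%. For Per2 the values were 0.221 ± 0.207 in W and 0.816 ± 0.111 in C rats (SE), and for Ciart 0.812 ± 0.351 and 1.49 ± 0.281.

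The difference in rhythm itself was tested with limma on log2(fpkm + 1), by an F test on both terms of the cosine. Of the 6 repressors 5 differed between W and C rats at an unadjusted p under 0.05, where 1.83% of all genes did. Per2 had the smallest (p = 0.000191, size of the difference 1.12 log2 units), then Ciart (p = 0.000725, 1.31 log2 units), Per1 (p = 0.0121), Cry2 (p = 0.0287), and Per3 (p = 0.0293), while Cry1 had p = 0.0544. After Benjamini-Hochberg adjustment over the 10257 genes, 0 of the 6 and 0% of all genes passed (limma adjusted p = 0.404 for Per2 and 0.624 for Ciart). Without W1 to W11, Per2 (limma adjusted p = 0.018) and Ciart (adjusted p = 0.0394) passed, so that 1 series of 6 rats decided whether these were called. The W rats left in that fit were W17 to W22 and W33 to W38, the series whose fitted peaks lay furthest from those of C rats, as given below. How many of all genes passed in that fit is not given.

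Hour by hour, the smallest p-values between W and C rats fell at ZT5. On the log2(fpkm + 1) scale, Per2 was higher in W rats at ZT5 by 1.68 ± 0.44 (SE, 3 rats against 3, limma p = 0.000519), Per1 by 1.49 ± 0.45 (p = 0.00178), Ciart by 1.21 ± 0.53 (p = 0.0287), and Cry2 by 0.47 ± 0.20 (p = 0.0221). Lower values came at the hours when the genes are high in C rats. The log2 difference was -1.39 for Ciart at ZT9 (p = 0.0129) and -1.33 at ZT13 (p = 0.0174), -0.99 for Per2 at ZT17 (p = 0.032), and -0.49 for Cry2 at ZT21 (p = 0.0171). These 8 of 36 gene-times had an unadjusted limma p under 0.05, against 1.64% of the 61542 gene-times of all genes. None passed the adjustment (0% of all gene-times, adjusted p = 1 for each).

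**Figure D2:**
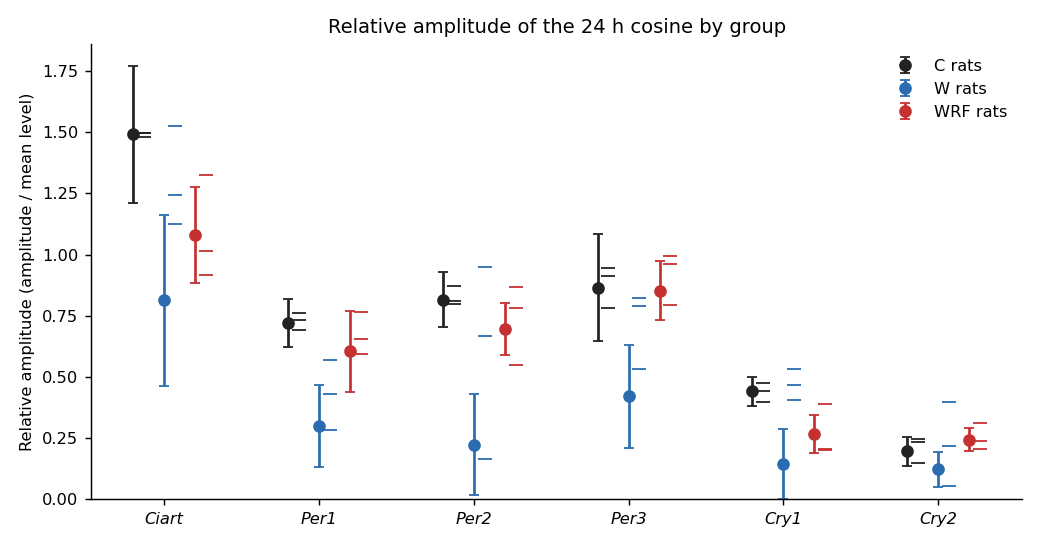
Relative amplitude of the 24 h cosine (amplitude over mean level, linear axis from 0) of each repressor in C, W, and WRF rats. Points are fits to 18 rats with their SE, and short bars are fits to each series of 6 rats. The W points lie below the C points for all 6 genes. Of the W series, W1 to W11 lies above the 3 C series for Ciart (1.53), and W33 to W38 does for Per2 (0.949), Cry1 (0.532), and Cry2 (0.395).

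Series by series, the W rats held rhythms of different phase. In W33 to W38, Ciart had 6.20, 2.83, 1.05, 0.145, 0.306, and 2.53 fpkm from ZT1 to ZT21, so that the highest rat was that of ZT1, the time at which all 3 C rats were lowest. In W1 to W11 Ciart followed an order closer to that of C rats, with 0.0938, 0.609, 6.83, 1.83, 0.572, and 0.155 fpkm. In W17 to W22 Ciart was at 0.126, 8.00, 3.88, 2.23, 1.10, and 0.513 fpkm, with its highest rat at ZT5. Cry1, the late gene of the loop, was lowest at ZT1 (1.94 fpkm) and highest at ZT13 (6.09 fpkm) in W33 to W38, and highest at ZT1 (8.15 fpkm) in W17 to W22.

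Fitted peaks put numbers on this. In W33 to W38 the peaks were at ZT1.43 for Ciart, 4.17 for Per3, 4.77 for Per1, 5.77 for Per2, 6.41 for Cry2, and 10.3 for Cry1. Each was 8.33 to 9.83 h earlier than the fit to all C rats, with a median of 8.94 h. The median was 2.08 h earlier in W17 to W22 and 0.616 h earlier in W1 to W11. The swing of a single series was not uniformly small: the median relative amplitude over the 6 genes was 0.677 in W33 to W38, 0.618 in W1 to W11, and 0.375 in W17 to W22, against 0.736, 0.771, and 0.816 in the C series. A fit to 6 rats carries no p.

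A limma test of the difference in rhythm among the 3 W series gave an unadjusted p under 0.05 for 5 of the 6 repressors, where 3.54% of all genes had one. They were Cry2 (p = 0.000405), Per3 (p = 0.00057), Cry1 (p = 0.00148), Per2 (p = 0.00188), and Ciart (p = 0.00188), and Per1 was the exception (p = 0.302). Among the C series the count was 0 of 6 (3.71% of all genes), and among the WRF series 0 of 6 (5.98%). After adjustment 0 of 6 and 0% of all genes passed among the W series (limma adjusted p of at least 0.345). The cardiomyocyte marker sum was 9584 to 14720 in W33 to W38, within the range of the C rats. Without W33 to W38, 3 repressors, Cry1 among them (relative amplitude 0.427, p = 0.0229), had an unadjusted p under 0.05 for rhythm in the other 12 W rats. At q under 0.05, 0 of the 6 and 0 of all genes passed. For this fit the share of all genes at the unadjusted threshold is not given, so the 3 stand without a background. The study had already described a replicate rhythm of the W rats as out of phase in these same data. The test among the W series is thus not independent of what was known. The cause of the difference between series was not tested.

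**Figure D3:**
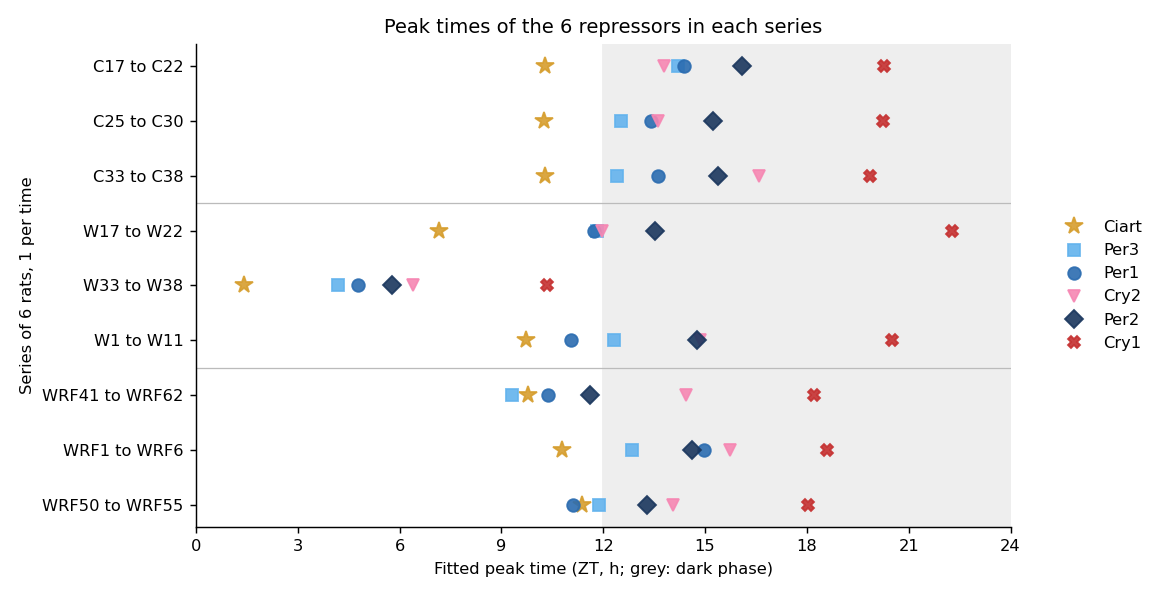
Fitted peak time (ZT, h) of each repressor in each series of 6 rats, with C series at the top, W in the middle, and WRF at the bottom, and grey for the dark phase. In W33 to W38 all 6 genes peak between ZT1.43 and ZT10.3, and Cry1 is the last gene in each of the 9 series.

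In WRF rats the repressors again followed the hour. Per3 had 0.502, 0.943, and 1.06 fpkm at ZT1 and 3.96, 4.98, and 5.28 fpkm at ZT9, without overlap. Per2 had 1.02, 1.32, and 1.33 fpkm at ZT1 and 4.62, 5.41, and 7.58 fpkm at ZT13. Ciart at ZT9 had 2.66, 4.32, and 5.32 fpkm, all below the C range of 8.56 to 11.2 fpkm. The log2(fpkm + 1) of Ciart at ZT9 differed from C by -1.17 ± 0.53 (SE, limma p = 0.034, adjusted p = 0.68). It was the only 1 of 36 gene-times of the repressors with an unadjusted p under 0.05, against 7.18% of the gene-times of all genes, and 0% of those passed the adjustment. The 2.66 fpkm at ZT9 is the value of WRF51, and without WRF51 and WRF62, or on log2(fpkm + 0.1), 0 of the 36 had an unadjusted p under 0.05. Under median-of-ratios scaling 3 of the 36 had one, with 0 past the adjustment. The share of all gene-times at p under 0.05 is not given for these alternatives.

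Per3 was rhythmic in WRF rats at q under 0.05 (relative amplitude 0.853 ± 0.12, SE, p = 1.58e-05, q = 0.0404, n = 18), 1 of the 6 repressors, where 0.039% of all genes passed. Per2 (p = 3.91e-05, q = 0.0801), Ciart (p = 0.000281, q = 0.189), Cry2 (p = 0.000522, q = 0.255), Per1 (p = 0.00837), and Cry1 (p = 0.0124) did not pass the correction. All 6 had an unadjusted p under 0.05, against 6.35% of all genes. The call of Per3 was lost without WRF51 (q = 0.0704), the library high in Ager, and without WRF51 and WRF62 (q = 0.0558). It was also lost without any 1 WRF series (12 rats), where 0 of all genes passed. With the times of the other labels, 0 of 6 and 0 of all genes passed, and 4 repressors had p under 0.05, a threshold for which the share of all genes is not given there.

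The fitted swing in WRF rats differed from that in C rats by gene. The relative amplitude in WRF rats was 60.2% of that in C rats for Cry1, 72.4% for Ciart, 84.0% for Per1, 85.4% for Per2, 98.6% for Per3, and 124% for Cry2. For Per3 it was 0.853 with all WRF rats and 0.883 without WRF51 and WRF62, on either side of the 0.865 of C rats. The fitted peaks of the Period genes and of Cry1 lay earlier than in C rats, by 2.19 ± 1.17 h (SE) for Per1, 2.16 ± 0.782 h for Per2, 1.52 ± 1.11 h for Per3, and 1.79 ± 1.22 h for Cry1. Ciart peaked at ZT10.6 in WRF and ZT10.3 in C rats, and Cry2 at ZT14.8 and ZT14.7. Without WRF51 and WRF62, Per1 peaked at ZT12.9 and Per3 at ZT12.0 in WRF rats, closer to the ZT13.8 and ZT13.0 of C rats. With the times of the other labels the fitted peaks in WRF rats were ZT7.84 for Per1, ZT8.25 for Ciart, ZT8.77 for Per3, ZT11.0 for Per2, ZT12.1 for Cry2, and ZT16.3 for Cry1, so each WRF peak given here rests on the titles.

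In the test of the difference in rhythm between WRF and C rats, the smallest limma p was 0.0625 for Per2 (adjusted p = 0.618). With the times of the titles 0 of 6 repressors had an unadjusted p under 0.05 (5.76% of all genes), and 0% of all genes passed the adjustment. With the times of the other labels 5 of 6 did (3.44% of all genes), Per2 (limma p = 0.000849), Per1 (p = 0.00284), Ciart (p = 0.014), Per3 (p = 0.0166), and Cry1 (p = 0.0393), and 0 passed the adjustment (smallest adjusted p = 0.871). Between WRF and W rats, Cry2 (limma p = 0.0138) and Per2 (p = 0.0247) had an unadjusted p under 0.05 (6.71% of all genes), with 0 of 6 and 0% of all genes past the adjustment. The comparisons of W and of WRF rats use the same C rats.

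The first and the last of the repressors recurred from series to series, while the full order of the 6 did not. Counted from lights on, Cry1 had the latest fitted peak in 9 of the 9 series and Ciart the earliest in 7. The exceptions were WRF41 to WRF62, where Per3 came first, and WRF50 to WRF55, where Per1 did. On a cycle, first and last depend on the start of the count, most so in W17 to W22, where Cry1 followed Per2 by 8.74 h. The 2 series of these exceptions hold WRF62 and WRF51, libraries that stood apart, and no series fit was made without them. WRF51 had the highest Per1 of its series, 16.0 fpkm at ZT9, with 2.66 fpkm of Ciart. That series also holds WRF50 and WRF55, whose hours are examined below. From the peak of Ciart to that of Cry1 passed 9.99, 9.98, and 9.59 h in the C series. In the WRF series it was 8.42, 7.83, and 6.68 h, and in the W series 15.1 h (W17 to W22), 8.90 h (W33 to W38), and 10.8 h (W1 to W11). The WRF intervals were shorter than the C intervals by a mean of 2.21 h and did not overlap with them. Whether this depends on the libraries that stood apart was not tested. A 2-sided exact permutation test gave p = 0.1, the smallest that 3 series against 3 allow, and 0.6 after adjustment over the 12 tests of 6 intervals. From Ciart to Per3 the C series took 3.92, 2.27, and 2.12 h and the WRF series -0.469, 2.07, and 0.495 h (exact permutation p = 0.1, adjusted 0.6), where a negative value means that Per3 came first. These intervals were chosen after the peaks had been seen.

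As a check on single animals, also chosen after the values had been seen, each rat was placed at the hour at which its 6 repressors lay closest to cosines fitted to C rats of the other series. C rats fell a median of 1.0 h from their collection time, and at most 3.0 h. All 6 rats of W33 to W38 fell 7.4 to 11.1 h later than their collection time. So did W18, by 7.2 h: its Ciart, Per1, Per2, and Per3 levels of 8.00, 13.2, 8.92, and 6.64 fpkm at ZT5 were nearest to those of C rats at ZT12.2. The other rats of W17 to W22 lay within 2.2 h, and those of W1 to W11 within 2.4 h except W7, at 4.1 h earlier.

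WRF rats fell later than their collection time by a median of 2.25 h. The median was 2.85 h in WRF41 to WRF62, 0.45 h in WRF1 to WRF6, and 3.05 h in WRF50 to WRF55. For the 12 WRF rats whose labels give different times, the nearest hour lay closer to the time of the title in 10 rats and to the other time in 2, with median distances of 3.2 and 7.0 h. Because the match is to C rats, it cannot tell a wrong label from a shift of phase in WRF rats, and it does not settle which time is right. Among these 12 rats WRF55, collected at ZT1, was nearest to ZT5.7, and WRF50, collected at ZT5, was nearest to ZT1.9. WRF55 had 1.59 fpkm of Ciart and 2.62 of Cry1, and WRF50 had 0.135 and 4.39 fpkm, so that the values of Ciart were in the reverse of the order seen at these hours in the other WRF series. The library of WRF55 was also high in adipocyte markers, as given above. Without WRF50 and WRF55, Per3 was again the only repressor past q under 0.05 in WRF rats (q = 0.0433). A cosine does not follow a sharp peak such as that of Ciart closely, so distances of an hour or less carry little information.

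**Figure D4:**
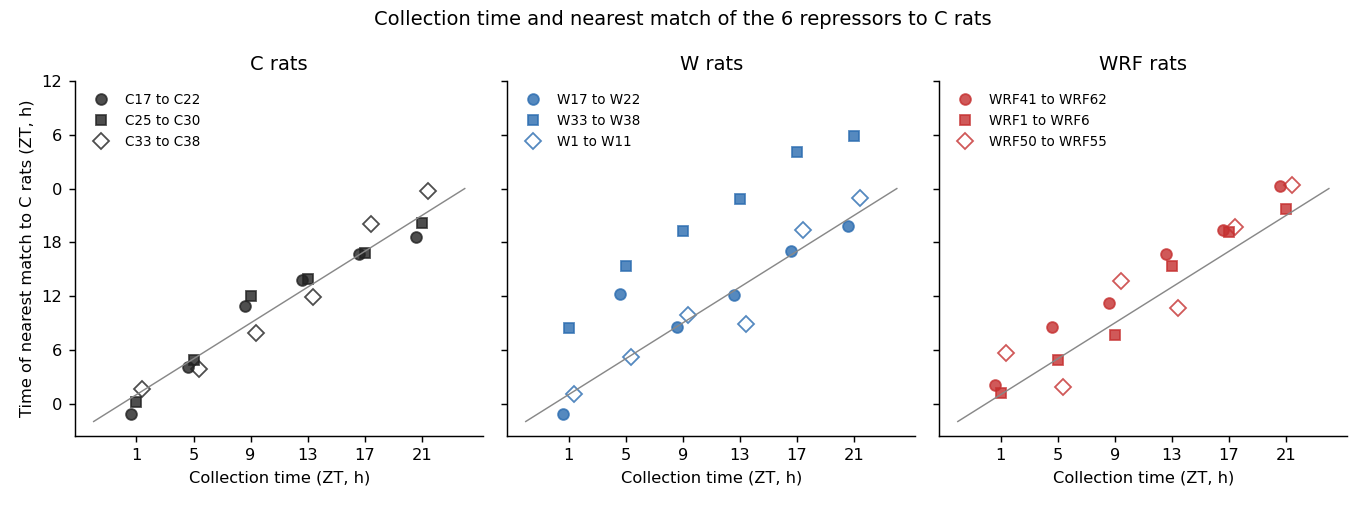
Hour of C rats nearest to the 6 repressors of each rat (vertical axis, ZT in h, running past midnight) against its collection time (horizontal axis, ZT in h), with the line of equal times. C rats lie within 3.0 h of the line, W33 to W38 lie 7.4 to 11.1 h above it, and W18 lies 7.2 h above it.

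Taken over the whole day, the ranges of the 3 groups overlapped for each repressor. Median Ciart was 0.897 fpkm for C rats, 1.07 for W rats, and 1.41 for WRF rats, with ranges of 0.0912 to 11.2, 0.0938 to 8.00, and 0.119 to 5.32 fpkm. Median Per2 was 5.31, 4.55, and 3.51 fpkm, and median Per3 2.07, 3.13, and 2.49 fpkm. Median Per1 was 5.99, 5.61, and 5.31 fpkm, median Cry1 4.45, 3.73, and 4.32 fpkm, and median Cry2 10.04, 9.24, and 8.95 fpkm in the same order. The order of the genes by mean level was Cry2, Per1, Per2, Cry1, Per3, and Ciart in C and W rats, and Per2 and Cry1 changed places in WRF rats, with ranges of the neighbouring genes that overlapped throughout. Kruskal-Wallis tests gave p from 0.232 (Cry2) to 0.998 (Ciart), and 0 of the 6 passed a q of 0.05, against 9.17% of all genes.

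Sizes of the level differences were estimated with limma on log2(fpkm + 1). The smallest p between W and C rats was that of Cry2, -0.15 ± 0.10 (SE, n = 18 per group, limma p = 0.133). Between WRF and C rats it was that of Per2, -0.28 ± 0.26 (limma p = 0.29), and between WRF and W rats that of Per3, -0.26 ± 0.27 (limma p = 0.335). Levels also differed between series of a group: Per3 averaged 1.45 to 4.75 fpkm in the 3 C series and 2.49 to 2.59 fpkm in the WRF series, while Cry2 averaged 9.65 to 10.05 fpkm in the C series. Ciart, whose mean rests on few hours, averaged 2.53 to 3.04 fpkm over the C series, 1.68 to 2.64 over the W series, and 1.53 to 1.92 over the WRF series.

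Pairs of repressors were correlated in all 3 groups. Each of the 15 pairs was correlated over the 18 rats of a group on log2(fpkm + 1), and of the 45 correlations 25 had an adjusted Spearman p under 0.05 (permutation test, 100000 resamples): 9 in C rats, 9 in W rats, and 7 in WRF rats. By Pearson's r the counts were 10, 8, and 8. All rats of a group span the same 6 hours, so a shared daily course contributes to each value. The highest rho in C rats was that of Per1 and Per3, 0.903 (permutation p = 1e-05, the smallest possible, adjusted 0.00015), with Pearson's r = 0.891 (permutation p = 1e-05), and r = 0.864 without the 2 rats of most extreme Per1. Within the 3 C series r was 0.980, 0.913, and 0.882. In W rats it was that of Per2 and Cry2, with rho = 0.893 (permutation p = 1e-05, adjusted 0.00015), r = 0.891 (p = 2e-05), and r = 0.839 without the 2 most extreme rats. Its r within series was 0.905 in W17 to W22, 0.918 in W33 to W38, and 0.979 in W1 to W11, so it was also high in W33 to W38. In WRF rats it was that of Per3 and Ciart, with rho = 0.864 (permutation p = 1e-05, adjusted 0.00015), r = 0.829 (p = 4e-05), 0.792 without the 2 most extreme rats, and 0.792 to 0.919 within series.

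Cry1 and Ciart ran in opposite directions. Spearman's rho was -0.651 in C (permutation p = 0.00431, adjusted 0.0102), -0.699 in W (p = 0.00177, adjusted 0.00531), and -0.348 in WRF rats (p = 0.158, adjusted 0.203). Pearson's r was -0.635, -0.665, and -0.502 (permutation p = 0.00515, 0.003, and 0.0342), and -0.428, -0.568, and -0.487 without the 2 rats of most extreme Cry1. Within series r was negative in 9 of 9, from -0.884 in W17 to W22 to -0.379 in WRF1 to WRF6. Whether the groups differ in these correlations was not tested.

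**Figure D5:**
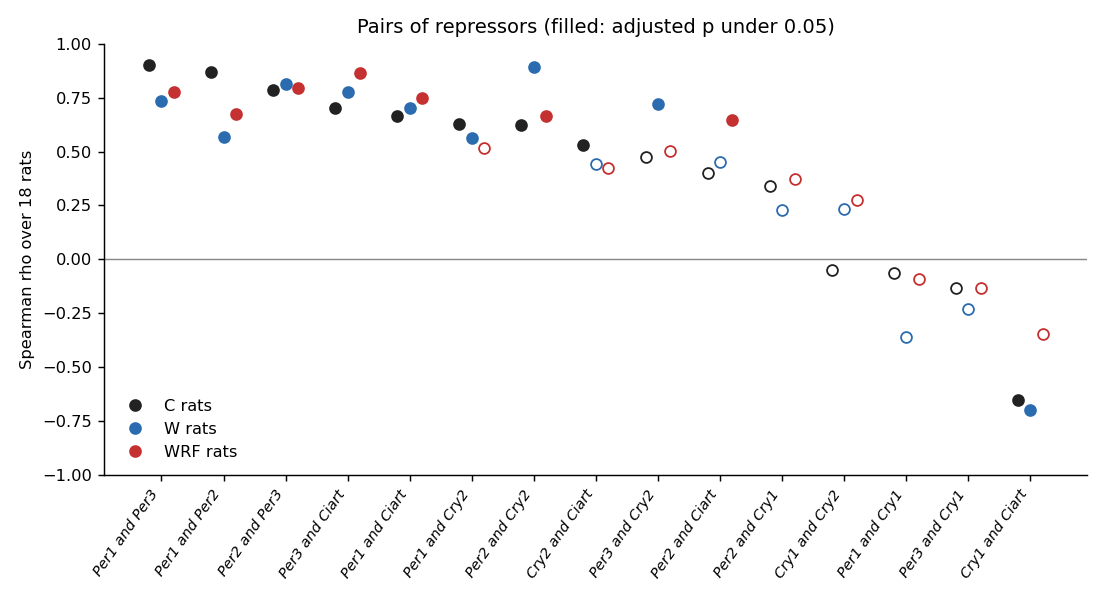
Spearman's rho (vertical axis, -1 to 1) of each of the 15 pairs of repressors over the 18 C, 18 W, and 18 WRF rats, with filled points for an adjusted permutation p under 0.05. Pairs among the Period genes are filled in all 3 groups, and Cry1 with Ciart is the only pair below -0.5, in C and W rats.

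Genes whose pattern over all 54 rats was most like that of each repressor were ranked by Spearman's rho of fpkm, as a description without a test. Ciart stood closest to Dbp, the clock-driven activator of D-box genes (0.969), then Nr1d2 (REV-ERB beta, 0.840) and Bhlhe40 (an E-box repressor, 0.743). It ran most against Arntl (-0.808) and Palmd (-0.804). Per2 was closest to Dusp7, a MAP kinase phosphatase (0.896), Wee1, a kinase of the cell cycle (0.889), and Tef (0.874), and most against Slc41a3 (-0.795) and Col5a3 (-0.791). Tef was among the 3 closest genes of Per1, Per2, Per3, and Cry2.

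Per1 was closest to Map3k6 (0.810), Tob2 (0.804), and Tef (0.8003), and most against Fam220a (-0.767) and Arntl (-0.748). Per3 was closest to Nr1d2 (0.852), Fam76a (0.846), and Tef (0.831), and most against Slc41a3 (-0.802) and Arntl (-0.799). Cry2 was closest to Herpud1, of endoplasmic reticulum protein degradation (0.847), Tef (0.775), and Tspan4 (0.768), and most against Npas2 (-0.706) and Sh3bp5 (-0.704). Cry1 stood apart, with lower values: Nfil3, a repressor at D-boxes (0.668), Fkbp5, a glucocorticoid-induced chaperone partner (0.666), and Etfbkmt (0.607). It ran most against Nr1d1, which encodes REV-ERB alpha (-0.830), and Dbp (-0.587).

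Around the repressors, most of the calls in C rats fell on other clock transcription factors, and few on the enzymes that act on PER and CRY proteins. On 10 lists, 63 genes were measured (75 listed). Of these, 10 were rhythmic at q under 0.05 in C (0.848% of all genes), 0 in W (0%), and 3 in WRF rats (0.039%). At an unadjusted p under 0.05 they numbered 20, 2, and 16, against 5.91%, 3.05%, and 6.35% of all genes. Of the activators, Arntl peaked at ZT1.45 in C rats (relative amplitude 1.26, q = 0.000152) and Npas2 at ZT3.55 (1.06, q = 0.00615), 2 of 3 on that list. Nr1d1 (peak at ZT8.23, relative amplitude 1.16) and Nr1d2 (ZT10.7) were both rhythmic in C rats, 2 of 2, as were 3 of 3 PAR bZIP factors and their antagonist, namely Dbp (ZT10.4), Tef (ZT13.6), and Nfil3 (ZT22.2). In WRF rats Nr1d2, Dbp, and Tef passed (q = 0.0404 each). Of the other E-box repressors, Bhlhe40 and Id2, 0 of 2 passed in C rats.

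Of 14 kinases and phosphatases of PER and CRY, 0 were rhythmic in any group, with a median relative amplitude in C rats of 0.0636, against 0.0806 for all genes. In WRF rats their median was 0.172, against 0.196 for all genes, and 2 of the 14 had an unadjusted p under 0.05. Of 8 ligases and deubiquitinases 1 was, Usp2, a deubiquitinase with a daily rhythm in many tissues, with a relative amplitude of 0.435 and a peak at ZT14.0 in C rats (q = 0.00699). Of 12 other partners of the PER-CRY complex 0 passed. Genes induced by glucocorticoids, as Per1 also is, held 2 of 7 rhythmic genes in C rats, the stress gene Ddit4 (peak at ZT15.3, q = 0.00053) and Fkbp5 (ZT18.1, q = 0.0283). With an unadjusted p under 0.05 the list held 6 of 7 genes in C rats (5.91% of all genes), 0 in W rats (3.05%), and 2 in WRF rats (6.35%). No immediate early gene (0 of 6) and no heat shock gene (0 of 6) passed, although 4 of the latter had p under 0.05 in C rats. In level, 3 of the 63 passed the Kruskal-Wallis test at q of at most 0.05, where 9.17% of all genes did, namely the kinase Gsk3a, the phosphatase subunit Ppp1ca, and Skp1, a part of ubiquitin ligases.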

How the data were processed

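RNA-Seq of whole hearts from 54 rats was used. Before deposit the authors aligned the directional polyA libraries to rn6 with TopHat2, estimated FPKM with Cufflinks, and kept the 10257 genes above 1 fpkm in at least 18 rats; tool versions are not given in the sources used here. The FPKM values were used as deposited, with 0 columns left out; 433 are 0, none of them a repressor's. They hold no counts, so no depth per gene or counting error was derived from them. Rats were grouped by title, and nothing states that series or rat numbers pair animals across groups. Each is a separate animal.

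Rhythms were tested by harmonic regression on fpkm (24 h, F test) with Benjamini-Hochberg adjustment over all genes (Python 3.11.15, numpy 2.4.6, scipy 1.17.1, pandas 2.3.3, matplotlib 3.10.9). The authors combined 6 rhythm algorithms, which were not all at hand. Levels were tested with Kruskal-Wallis tests, as in the study. Differences of rhythm, gene-times, and sizes came from limma 3.58.1 (R 4.3.3) with a variance trend on log2(fpkm + 1); fold changes of low genes are understated on that scale. The limma and regression fits were tested on simulated data. Alternatives were other scales and pseudocounts (0.1), median-of-ratios scaling, a JTK-type test, combined p-values, a filter at a mean of 2 fpkm, removal of series means, other times, and left-out libraries and series. Level fits were also run with time as a factor and with the atrial gene Myl7 as a covariate.

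Named were all 6 repressors; genes of the lists rhythmic in C rats, up to 4 per list by p, with Arntl and Nr1d1; the 3 genes most like and 2 least like each repressor; and markers of libraries that stood apart. Bhlhe40 and Id2 were also named, as the whole of their list, and Gsk3a, Ppp1ca, and Skp1, chosen after their values were seen. Repressors and lists were chosen with earlier results of these data known. Promoter windows came from RefSeq (GRCr8), matched by symbol for 5 of 6 genes; Cry1 had none. GRCr8 is not the build of the expression values, and no expression value was taken by coordinate.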

Additional observations from a re-analysis of the deposited data

How the results depend on the processing

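Of 640 values under an alternative, 585 kept their direction and their side of the threshold (or stayed within 1.5 times a count). Of the 585, 220 are sizes of rhythm differences, which have no direction and could only cross the threshold. Of the level differences, only that of smallest p in each contrast was counted. Values of tests in which 0% of all genes passed had little room to change, so the 585 is not a measure of robustness. The number of repressors rhythmic in C rats, 4, was 0 with the JTK-type test, 0 to 0 when 1 C series was left out, 3 with series means removed (Ciart q = 0.0754), and 5, with Per3 added, under median-of-ratios scaling, log2(fpkm + 1), log2(fpkm + 0.1), and combined p-values. In WRF rats the number, 1, was 2 under median-of-ratios scaling and log2(fpkm + 1), with Per2 added, 4 with combined p-values, and 0 with the JTK-type test, with the times of the other labels, without WRF51, and without WRF51 and WRF62; it was 0 to 0 when 1 WRF series was left out. It was 1 under log2(fpkm + 0.1) and with series means removed, but then Per2 and Cry2, not Per3. Of all genes, the JTK-type test called 0 in each group. Joining its p-values with those of the harmonic regression by Fisher's method called 217 of all genes for C and 50 for WRF. Harmonic regression alone called 87 and 4. Fisher's method takes p-values to be independent, but both tests used the same rats. Its counts, the 5 and 4 repressors included, may therefore be too high. The fits without 1 C series called 1 to 21 of all genes, and those without 1 WRF series called 0. The number with a different rhythm between W and C rats, 0, was 0 to 2 when 1 series was left out, and 2 without W1 to W11. How many of all genes were called in these fits is not given. The cosine of Cry1 in W rats, at p = 0.623 with all rats, had a relative amplitude of 0.0205 to 0.427 when 1 W series was left out, and its phase turned without W17 to W22 (0.122, p = 0.794). The cause of these changes was not tested. With the times of the other labels, 5 repressors had an unadjusted p under 0.05 for a different rhythm between WRF and C rats, in place of 0. Of the 45 correlations, 22 to 27 passed. Fewer rats per fit (12 in place of 18) limit the tests without a series, and without counts the limit set by depth was not assessed.

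Among 24 C and W rats that share 12 numbers, a replicate block by number gave 0 repressors with a different rhythm and 0 with a different level, as did the fit without it. Same-numbered rats correlated at -0.185 to 0.647, 6 of 12 above 0.1 and 1 of 12 best with its own number, so a shared number was not read as a pair. Leaving out WRF50 and WRF55, chosen after seeing the data, kept 1 rhythmic repressor in WRF rats.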
